A study of Saccharomyces cerevisiae with 6 samples.

Results

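The 9 genes that encode the subunits specific to RNA polymerase I (Pol I), or shared by it with Pol III alone, were followed in NET-seq libraries of *rpa12Δ* and WT yeast. *RPA190*, *RPA135*, *RPA49*, *RPA43*, *RPA34*, *RPA14*, *RPA12*, *RPC40* and *RPC19* were taken by name and found among 6389 annotated genes outside the rDNA. NET-seq sequences the 3′ ends of RNA that is bound to an immunoprecipitated polymerase, which in these *Saccharomyces cerevisiae* strains was Pol I with HA-tagged Rpa135. The mutant is a derivative of the HA-tagged strain that carries a full deletion of *RPA12*, and WT is the HA-tagged strain itself, so the *RPA135* gene is tagged in both. There were 3 *rpa12Δ* libraries and 3 WT libraries, each from a 3 L culture in YEPD collected at an A600 of 0.3. The place of the tag in *RPA135* and the marker used for the deletion are not given in the sources used here.

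Pol I makes the large precursor of the ribosomal RNAs, whereas the genes of its own subunits are transcribed by Pol II, like other protein-coding genes. Rpa190 and Rpa135 form the active centre, Rpc40 and Rpc19 are the platform on which they assemble and are also part of Pol III, Rpa49 and Rpa34 form a dimer related to TFIIF, and Rpa43 and Rpa14 form the stalk. Rpa12 is related to Rpb9 and TFIIS and takes part in cleavage of the nascent RNA. Reads in these genes therefore measure the RNA of Pol II genes that was recovered with the Pol I precipitate, and neither the labels nor the files say whether it was nascent or mature.

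The libraries held 13588526 to 14634449 reads in *rpa12Δ* and 4344302 to 6755222 in WT. Reads outside the rDNA came to 4674055 to 4859327 per *rpa12Δ* library and 1165143 to 1662542 per WT library. Levels are given in RPM, read ends per 1000000 of these reads, so that 1 read equals 0.206 to 0.214 RPM in *rpa12Δ* and 0.601 to 0.858 in WT. snoRNA genes took 62.2 to 66.2% of the reads outside the rDNA in *rpa12Δ* and 57.7 to 60.4% in WT, and protein-coding genes took 20.02 to 23.1% in *rpa12Δ* and 25.03 to 27.0% in WT. The strains also differed in a-specific mating genes, a difference the labels do not give. *STE2*, the alpha-factor receptor gene, had 86.6, 72.7 and 75.1 RPM in the *rpa12Δ* libraries and 2.41, 3.50 and 4.29 in the WT libraries, and all 5 listed a-specific genes were called higher. Of 4 listed alpha-specific genes 3 had reads, and none of these was called by limma, while voom called 1. *SAG1*, the highest of them, had 14.0, 8.77 and 5.31 RPM in *rpa12Δ* and 15.6, 8.40 and 13.7 in WT, which overlap. The others were low in both strains. *STE3* reached at most 0.823 RPM in *rpa12Δ* and 3.01 in WT. Its log2 difference was -0.85 (limma, adjusted p = 0.123), and its groups overlapped. *MF(ALPHA)1* stayed under 1 RPM in every library, and *MF(ALPHA)2* had no reads in either strain. The part of the difference in a-specific genes in the results below was not tested.

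*RPA12* (YJR063W, chromosome X, 555195 to 555572, R64 build) was the end point of 0, 0 and 1 reads in the *rpa12Δ* libraries and of 8, 9 and 3 reads in the WT libraries. This is 0, 0 and 0.212 RPM in *rpa12Δ* and 4.81, 6.30 and 2.57 in WT. The exact Poisson 95% upper limit of a count of 0 is 3.69 reads. In *rpa12Δ* replicates 1 and 2, 3 reads equal 0.617 and 0.642 RPM. Pooled over libraries, the rate in *rpa12Δ* was 0.0149 of that in WT (exact 95% interval 0.000360 to 0.0934, counting error only). At the WT rate, 66.9 reads would have been found in the 3 *rpa12Δ* libraries. *RPA12* reads were thus all but absent from the mutant libraries, which checks their labels and is no finding about the gene.

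Of the 9 members, *RPA190* was called higher in *rpa12Δ* and the deleted *RPA12* lower, and the other 7 were not called. Calls came from a limma fit over 6260 genes on log2(RPM + 1), with Benjamini-Hochberg adjustment over all of them and a threshold of 0.05, and voom gave the same number of members in each direction. Over all genes tested, 16.2% were called, of which 173 genes (2.76%) were higher and 841 (13.4%) lower. The split of all calls moved with the scaling. Against the reads in protein-coding genes 492 genes were higher and 550 lower, with median-of-ratios size factors 516 and 567, against the 35S read ends 941 and 367, and with distinct intervals counted once 770 and 446. Under these scalings the members called higher numbered 2 (7.86% of all genes), 3 (8.24%), 5 (15%) and 6 (12.3%), *RPA190* among them each time. In the same order, the median log2 difference of all genes tested was 0.0084, 0.013, 0.20 and 0.18, against -0.22 in the main fit. Member values under these scalings are not given relative to those medians. With single libraries left out, the 1014 called genes became 452 without *rpa12Δ* replicate 2, 528 without *rpa12Δ* replicate 3 and at most 1094.

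The 8 members that both strains carry had a median log2 difference of 0.31, and 6 of them were above 0. The 2902 genes whose mean reached 10 RPM had a median of -0.26, so differences are also given relative to that median, where the 8 members stood at 0.57. *RPA190* and *RPA49* were higher in every *rpa12Δ* library than in any WT library, a pattern found in 7.38% of all genes tested and in 10.1% of those reaching 10 RPM.

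**Figure D1:**
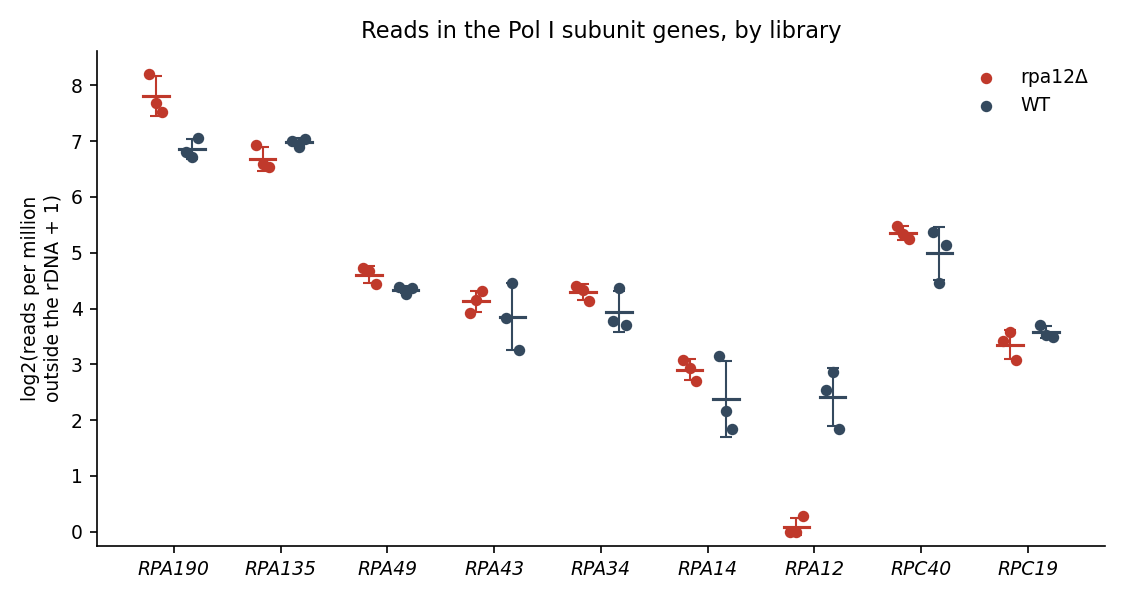
RPM outside the rDNA, as log2(value + 1), in the 9 Pol I subunit genes, with 1 point per library, the mean as a horizontal bar and the SD as an error bar (n = 3 per strain). *RPA190* is higher in all 3 *rpa12Δ* libraries than in any WT library, *RPA12* is at or near 0 in *rpa12Δ*, and most other genes overlap between the strains.

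*RPA190* encodes the largest subunit (YOR341W, chromosome XV, 960987 to 965981). It had 294, 205 and 182 RPM in the *rpa12Δ* libraries and 111, 104 and 132 in the WT libraries. Every *rpa12Δ* library thus lay above every WT library. The mean was 227 ± 59.3 RPM in *rpa12Δ* and 116 ± 14.5 in WT (SD over 3 libraries). The log2 difference was 0.94 (SE 0.17, limma, adjusted p = 0.00237), a 1.92-fold rise, and 1.20 relative to the median of genes. Of the 2902 genes reaching 10 RPM, 0.689% had a larger log2 difference. The exact two-sided permutation test gave p = 0.1, the smallest it can give with 3 libraries against 3. In these bulk cultures, more cells with the RNA, more RNA per cell and more of it recovered with the precipitate cannot be told apart.

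*RPA135* encodes the catalytic partner of Rpa190 and is the tagged gene (YPR010C, chromosome XVI, 577585 to 581196). It had 121, 94.99 and 91.3 RPM in the *rpa12Δ* libraries and 128, 118 and 130 in the WT libraries, so that *rpa12Δ* replicate 1 lay within the WT range and the other two below it. The log2 difference was -0.30 (95% interval -0.61 to 0.02, limma, adjusted p = 0.196) and -0.04 relative to the median of genes. Without *rpa12Δ* replicate 1 it was -0.42 with an adjusted p of 0.0315 from limma. It turned to 0.22 against the 35S read ends and to 0.23 with distinct intervals, neither past the threshold.

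A ratio of 2 genes within a library does not depend on the denominator. For each read in *RPA135* there were 2.43, 2.16 and 1.99 reads in *RPA190* in the *rpa12Δ* libraries and 0.873, 0.882 and 1.01 in the WT libraries, with no overlap. The mean ratio was 2.19 ± 0.219 in *rpa12Δ* and 0.922 ± 0.0787 in WT (SD over 3 libraries). This pair was chosen after its values were seen, and no test was attached to it. The share of all gene pairs whose ratios stay apart between the strains was not counted. Of the single genes tested, 7.38% were higher and 24.7% lower in every *rpa12Δ* library than in any WT library. Set against its neighbour *RPA43*, *RPA190* had 20.7, 12.3 and 9.63 reads per *RPA43* read in the *rpa12Δ* libraries and 8.41, 4.97 and 15.4 in the WT libraries. The groups overlapped through WT replicate 3 alone, and the WT ratios rested on 22, 30 and 10 *RPA43* reads. Per length of gene, *RPA190* stood at 1.44 to 1.76 times *RPA135* in *rpa12Δ* and at 0.631 to 0.733 times in WT.

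The reads of *RPA190* were spread over the whole gene. In 4 equal stretches from the start codon on, the *rpa12Δ* mean was 2.03, 1.61, 2.38 and 1.81 times the WT mean, and the groups overlapped in stretch 2 only. The same 4 stretches of *RPA135* gave 0.806, 0.830, 0.825 and 0.805 times the WT mean. Single positions recurred between libraries. Position 2690 of *RPA190*, counted from the first base of the coding sequence, took 199, 78 and 35 reads in the *rpa12Δ* replicates and 15, 4 and 3 in the WT replicates. These were 13.9, 8.13 and 4.08% of the gene's reads in *rpa12Δ* and 8.11, 2.68 and 1.95% in WT. Without this position the log2 difference of *RPA190* was 0.87 (limma, adjusted p = 0.00249), and without *rpa12Δ* replicate 1, the highest library, it was 0.74 (limma, adjusted p = 0.00913).

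**Figure D2:**
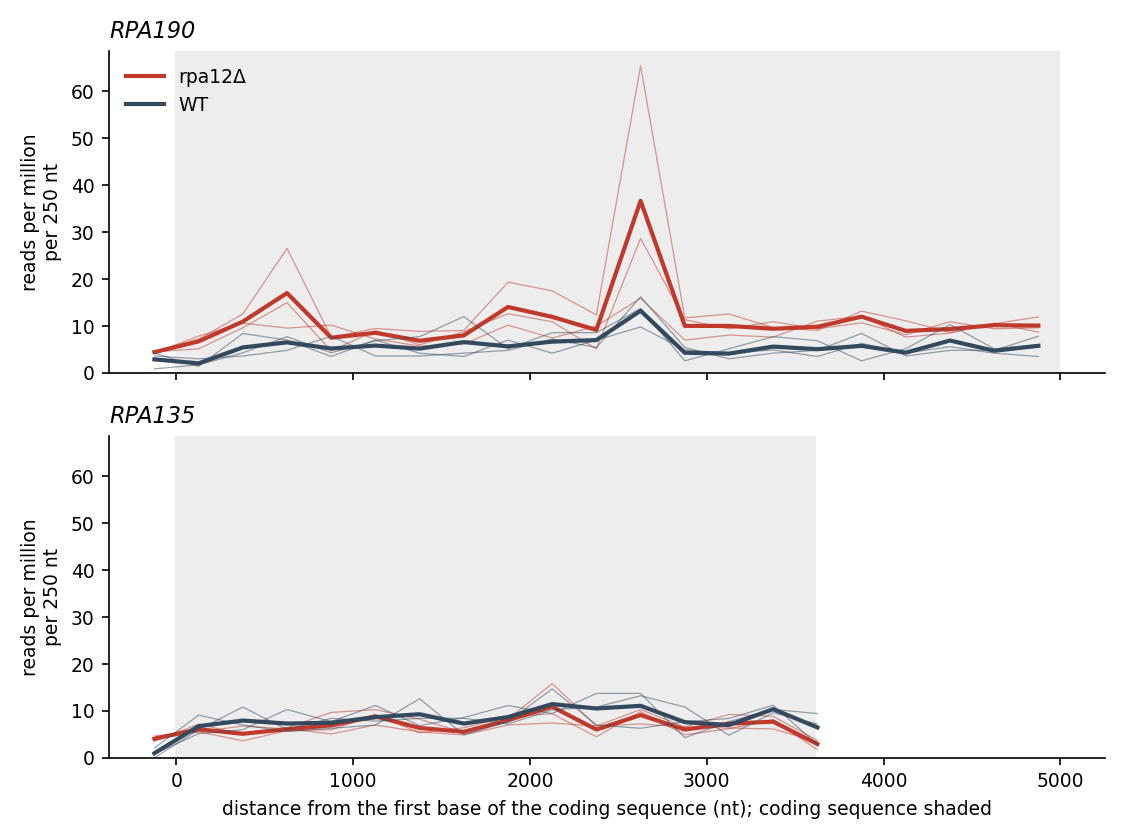
RPM in bins of 250 nt along *RPA190* (top) and *RPA135* (bottom), against the distance from the first base of the coding sequence, which is shaded. Thin lines are single libraries and thick lines the means of *rpa12Δ* (red) and WT (dark). The *RPA190* line of *rpa12Δ* lies above that of WT along the gene, with its peak in the bin that holds position 2690, and the *RPA135* lines run close together.

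*RPC40* and *RPC19* encode the assembly platform shared with Pol III. *RPC40* (YPR110C, chromosome XVI, 745828 to 746835) had 43.8, 39.6 and 36.7 RPM in the *rpa12Δ* libraries and 40.3, 21.0 and 34.3 in the WT libraries, which overlap. Its log2 difference was 0.37 (95% interval -0.12 to 0.85, limma, adjusted p = 0.313), and it was 0.55 without WT replicate 1 and 0.10 without WT replicate 2, neither called. Against the reads in protein-coding genes it was 0.64 and called (limma, adjusted p = 0.032), and it was called under the other 3 scalings as well, at 0.62 to 0.87. *RPC19* (YNL113W, chromosome XIV, 412771 to 413199) had 9.67, 10.9 and 7.43 RPM in *rpa12Δ* and 12.03, 10.5 and 10.3 in WT. Its log2 difference of -0.22 (95% interval -0.76 to 0.32, limma, adjusted p = 0.602) was 0.04 relative to the median of genes, and it turned above 0 under all 4 of these scalings without a call. Without *rpa12Δ* replicate 3 it was -0.08. Reads in *RPC40* per read in *RPC19* were 4.53, 3.63 and 4.94 in *rpa12Δ* and 3.35, 2 and 3.33 in WT, which do not overlap. This pair was also chosen after its values were seen, and it rested on 20, 15 and 12 *RPC19* reads in WT. The share of all gene pairs that stay apart in this way was not counted. Neither *RPC40* nor *RPC19* alone was apart between the strains or called in the main fit. In *RPC40* a single position, 47, took 42.3, 42.2 and 32.9% of the gene's reads in the *rpa12Δ* replicates and 49.3, 26.7 and 35% in the WT replicates. The shares of this position, close to the start codon, overlapped between the strains, and without it the log2 difference of *RPC40* was 0.32. The ratio of *RPC40* to *RPC19* counts the reads at this position, and whether the strains stay apart without them was not tested.

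*RPA49* and *RPA34* encode the TFIIF-like dimer. *RPA49* (YNL248C, chromosome XIV, 181361 to 182608) had 25.5, 24.4 and 20.6 RPM in the *rpa12Δ* libraries and 19.8, 18.2 and 19.7 in the WT libraries. The groups did not overlap, but the log2 difference of 0.27 (95% interval -0.15 to 0.69) did not pass the threshold (limma, adjusted p = 0.391). *RPA34* (YJL148W, chromosome X, 140437 to 141138) had 20.2, 19.3 and 16.6 RPM in *rpa12Δ* and 12.6, 19.6 and 12.02 in WT, where replicate 2 was as high as the mutant. Its log2 difference was 0.35 (95% interval -0.16 to 0.86, limma, adjusted p = 0.363), and it was 0.56 without WT replicate 2 and 0.23 without WT replicate 3. Both were called with distinct intervals and against the 35S read ends, *RPA49* at 0.82 and 0.77 and *RPA34* at 0.85 and 0.84, and *RPA49* also with size factors, at 0.54. The ratio of *RPA49* to *RPA34* reads was 1.26 ± 0.0129 in *rpa12Δ* and 1.38 ± 0.393 in WT (SD over 3 libraries).

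*RPA43* and *RPA14* encode the stalk, through which Pol I meets the initiation factor Rrn3. *RPA43* (YOR340C, chromosome XV, 959202 to 960182) is the neighbour of *RPA190* and is transcribed away from it. It had 14.2, 16.7 and 18.9 RPM in the *rpa12Δ* libraries and 13.2, 21.0 and 8.58 in the WT libraries. The WT libraries thus reached both below and above those of *rpa12Δ*. The log2 difference was 0.28 (95% interval -0.35 to 0.90, limma, adjusted p = 0.567), 0.58 without WT replicate 2, -0.02 without WT replicate 3 and 0.95, called, with distinct intervals. *RPA14* (YDR156W, chromosome IV, 769525 to 769938) rested on few reads, 36, 31 and 26 in *rpa12Δ* and 13, 5 and 3 in WT. Its level was 7.41, 6.63 and 5.52 RPM in *rpa12Δ* and 7.82, 3.50 and 2.57 in WT, a log2 difference of 0.52 (95% interval -0.24 to 1.28, limma, adjusted p = 0.362). It was 0.90 without WT replicate 1 and 0.25 without WT replicate 3, neither called. Its last bases overlap the annotated gene YDR157W on the same strand, and reads there count for both. *RPA14* was called at 0.96 against the 35S read ends and at 1.11 with distinct intervals. *RPA14* and *RPA12* were the 2 members with a mean under 10 RPM over the 6 libraries.

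Compared per kilobase, the order of the members differed between the strains. In *rpa12Δ*, *RPA190* came first with 45.5 ± 11.9 RPM per kilobase, followed by *RPC40* with 39.7 ± 3.55, *RPA135* with 28.4 ± 4.52 and *RPA34* with 26.6 ± 2.68 (SD over 3 libraries). In WT, *RPA135* came first with 34.7 ± 1.75, followed by *RPC40* with 31.6 ± 9.80, *RPC19* with 25.5 ± 2.21 and *RPA190* with 23.2 ± 2.90 (SD over 3 libraries). Most neighbours in these orders overlapped between libraries. In *rpa12Δ*, *RPC40* stood clear of *RPA135* and *RPA14* of *RPA12*, and in WT, *RPA34* stood clear of *RPA49*. The intact members reached high ranks among protein-coding genes by this level, the 81.8th to 93.8th percentile in *rpa12Δ* and the 62.5th to 90.0th in WT.

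Few member reads lay on the other strand, which gives the background of the strand assignment. RNA recovered without binding to the tagged polymerase was not measured, since no untagged library was among the samples. All 9 genes together held 17 such reads in *rpa12Δ* and 1 in WT, beside 6345 reads in *rpa12Δ* and 1453 in WT on the transcript strand, and 10 of the 17 lay in *RPA14*. In the 8 intact genes, 92.1 to 93.9% of the reads in *rpa12Δ* and 91.2 to 93.4% in WT had a mapping quality above 10. Distinct intervals made up 81.2 to 93.3% of the member reads in *rpa12Δ* and 85.8 to 95.3% in WT, whereas of all reads outside the rDNA they made up 15.7 to 17.3% in *rpa12Δ* and 21.8 to 23.9% in WT. For the 7 members with at least 10 reads in every library, the share of reads before the midpoint overlapped between the strains. The smallest exact permutation p was 0.2, for *RPC19*, and 1 after adjustment over the 7 genes.

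The 250 nt on either side of each gene were counted as well, after the values in the genes had been seen. Downstream of *RPA190* there were 8.03, 7.92 and 11.5 RPM in the *rpa12Δ* libraries and 3.01, 4.90 and 2.57 in the WT libraries. The log2 difference of 1.19 (SE 0.29, limma, adjusted p = 0.0367 over 6221 windows) was the only call among the members' downstream windows, where 0.788% of all windows were called higher and 3.21% lower. It lay on 130 reads in *rpa12Δ* and 15 in WT. Leaving out any library other than WT replicate 2 brought the adjusted p to between 0.0929 and 0.242, with log2 differences of 1.03 to 1.27, and voom gave an adjusted p of 0.0505. Downstream of *RPA49* there were 6.38, 5.99 and 5.94 RPM in *rpa12Δ* and 2.41, 2.10 and 3.43 in WT (log2 difference 0.98 by limma, adjusted p = 0.0844).

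Few reads were found after the end of the tagged gene. Downstream of *RPA135*, which holds the HA tag, 3, 2 and 3 reads ended in the *rpa12Δ* libraries and 6, 1 and 6 in the WT libraries, so that the density of reads there was 7.90% of that in the coding sequence in *rpa12Δ* and 35.2% in WT. For the 7 other intact members this share ran from 41.7 to 130% in *rpa12Δ* and from 29.4 to 80.2% in WT. Upstream of *RPA135* there were 17, 19 and 22 reads in *rpa12Δ* and 0, 3 and 1 in WT, or 3.50, 4.06 and 4.67 RPM in *rpa12Δ* and 0, 2.10 and 0.858 RPM in WT. Neither difference passed the threshold (upstream log2 difference 1.496, adjusted p = 0.193, and downstream -1.22, adjusted p = 0.225, both from limma). Upstream, every *rpa12Δ* library lay above every WT library for *RPA190*, *RPA135*, *RPA49* and *RPA14*, as for 7.96% of the 5666 upstream windows with reads, while 8.9% lay below. For *RPA49* the upstream pattern rested on 2, 2 and 1 reads in *rpa12Δ* and 0, 0 and 0 in WT. For *RPA14* it rested on 4, 5 and 5 reads in *rpa12Δ* and 0, 0 and 0 in WT. The *RPA49* values in *rpa12Δ*, 0.212 to 0.428 RPM, were below the 0.601 to 0.858 RPM of 1 WT read. Those of *RPA14* in *rpa12Δ*, 0.823 to 1.07 RPM, were below the 1.80 to 2.57 RPM of 3 WT reads. None of the members' upstream windows was called, and 0.212% of all upstream windows were called higher and 1.27% lower. Downstream, every *rpa12Δ* library lay above every WT library for *RPA190* and *RPA49*, as for 7.2% of all downstream windows, and below for *RPA135*, as for 13.8%.

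**Figure D3:**
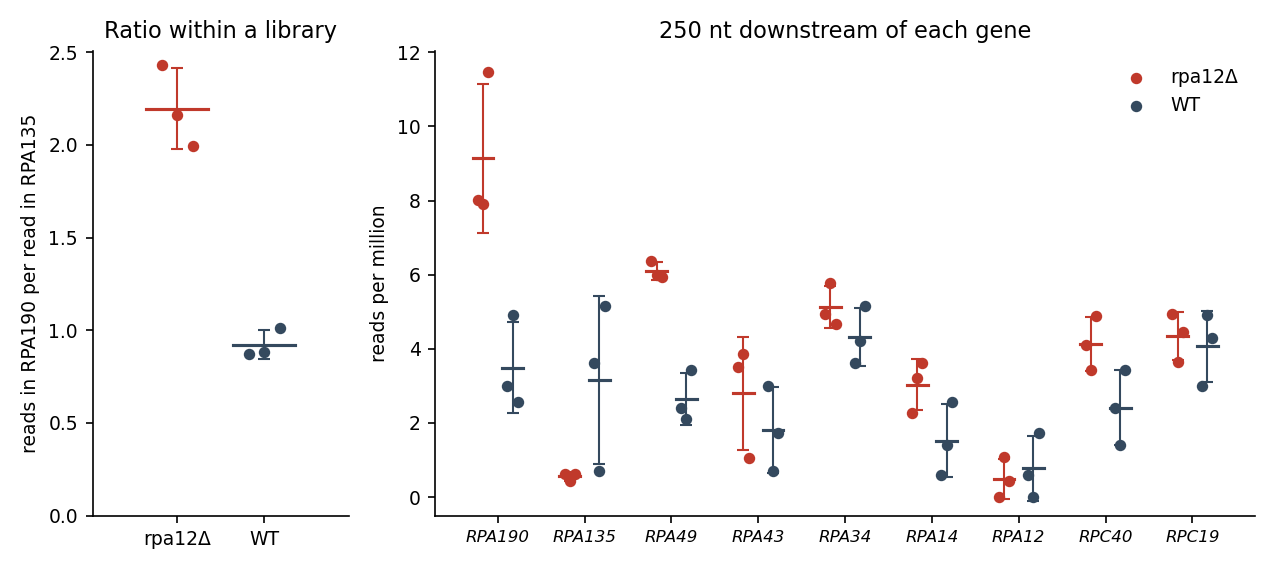
Left, reads in *RPA190* per read in *RPA135* in each library. Right, RPM in the 250 nt downstream of each Pol I subunit gene, with 1 point per library, the mean as a horizontal bar and the SD as an error bar (n = 3 per strain). The ratio is 1.99 to 2.43 in *rpa12Δ* and 0.873 to 1.01 in WT, and the windows after *RPA190* and *RPA49* are higher in every *rpa12Δ* library, while that after *RPA135* is lower, patterns found in 7.2% (higher) and 13.8% (lower) of all downstream windows.

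Other genes of the transcription machinery were read from the same fit. Of the 5 subunits shared by Pol I, II and III, 1 was called higher and 0 lower, with a median log2 difference of 0.36. Over all genes tested, 2.76% were called higher and 13.4% lower. *RPO26*, which encodes the shared subunit Rpb6, had 16.1, 13.5 and 15.7 RPM in the *rpa12Δ* libraries and 6.01, 8.40 and 9.44 in the WT libraries. Its log2 difference was 0.86 (SE 0.25, limma, adjusted p = 0.0322). The call was lost without *rpa12Δ* replicate 1 (adjusted p = 0.0763), 2 (0.107) or 3 (0.138) or without WT replicate 1 (0.0917), all from limma, with log2 differences of 0.69 to 0.93.

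No gene was called by limma or voom among the 7 Pol II subunits, the 10 Pol III subunits or the 12 Pol I factors. An unadjusted p under 0.05 from limma was found for 0, 1 and 0 of them. Of the 6260 genes tested, limma called 16.2% and voom 1276, and 1806 had an unadjusted p under 0.05 from limma. The list of Pol I factors also holds *SPT15*, *SPT4* and *SPT5*, which are not specific to Pol I. The medians were 0.01 for Pol II subunits, 0.12 for Pol III subunits and -0.02 for Pol I factors, against -0.22 over all genes tested. *RPO21*, the Pol II counterpart of *RPA190*, had 388, 244 and 183 RPM in *rpa12Δ* and 339, 305 and 297 in WT (log2 difference -0.27, limma, adjusted p = 0.424). *RPO31*, its Pol III counterpart, had 63.0, 50.7 and 62.0 in *rpa12Δ* and 65.6, 58.8 and 68.7 in WT (log2 difference -0.14, limma, adjusted p = 0.603). Neither list held a largest-subunit gene that was called, but the difference between *RPA190* and these genes was not tested.

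The Pol III list ran from -0.37 for *RPC53* to 0.81 for *RPC34*, an initiation subunit, which had 7.41, 7.92 and 9.13 RPM in *rpa12Δ* and 3.01, 7.001 and 3.43 in WT (limma, adjusted p = 0.111). *RPC11* and *RPB9*, the relatives of *RPA12* in Pol III and Pol II, had log2 differences of 0.62 (adjusted p = 0.189) and 0.04 (adjusted p = 0.952), both from limma. The cleavage factor gene *DST1*, which encodes TFIIS, had a log2 difference of -0.24 (limma, adjusted p = 0.588). Among the Pol I factors, the values ran from -0.56 for *RRN11*, a core factor gene, to 0.39 for *UAF30*, a gene of the upstream activating factor. The Pol II list ran from *RPO21* to *RPB7* at 0.40, and the shared subunits from *RPB8* at -0.16 to *RPO26*.

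**Figure D4:**
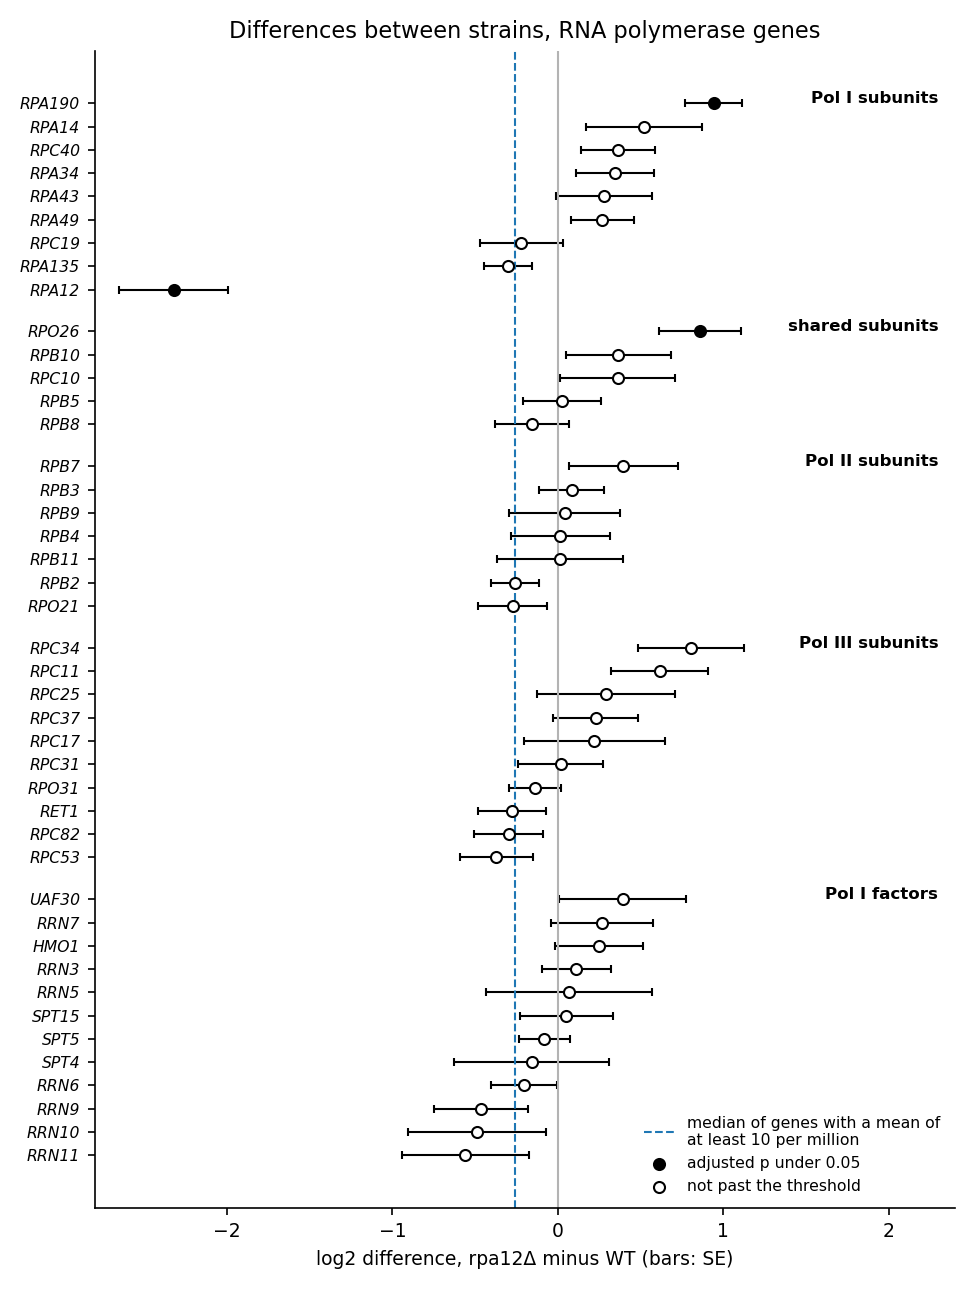
Log2 differences, *rpa12Δ* minus WT, with their SE from the limma fit, for the 9 Pol I subunit genes and 34 genes of the other lists. Filled points have an adjusted p under 0.05, and the dashed line is the median of the genes reaching 10 RPM, at -0.26. *RPA190* and *RPO26* are filled to the right of 0 and *RPA12* to the left.

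The genes beside *RPA12* were not called. *NTA1* and *ARP3* were lower in every *rpa12Δ* library than in any WT library, as were 24.7% of all genes tested, with log2 differences of -0.58 (adjusted p = 0.227) and -0.48 (adjusted p = 0.101), both from limma. *CCT5*, next after *RPA12* on the same strand, had 30.0, 31.2 and 32.9 RPM in *rpa12Δ* and 36.1, 30.8 and 30.0 in WT, and *MNN14* overlapped between the strains too. The median profile of the 8 intact members over the 6 libraries, each gene taken relative to its own mean, was most closely matched by *SNR8*, a snoRNA gene, *YHB1*, a flavohemoglobin gene, and *RVB1*, which encodes an AAA+ ATPase. Their root mean square distances to it were 0.062, 0.0621 and 0.0646 on the log2 scale, the smallest of 2875 genes, and none of the 3 was called (log2 differences 0.26, 0.27 and 0.18).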

How the data were processed

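Bulk cultures of both strains were analysed, with 1 deposited file per library. Per the labels, the authors' tools were bcl2fastq 2.18.0.012, Trim Galore 0.4.1, BWA 0.6 and SAMtools 1.3.1. The genome build is not given in the sources used here, and the R64 annotation was used, whose genes held 91.5 to 93.5% of the reads outside the rDNA on the transcript strand and 0.432 to 0.613% on the opposite one. Each deposited line is 1 aligned read, and its score, as the authors' alignment gave it, is a mapping quality from 0 to 60. Removal of PCR copies is not stated. The 5′ end of each read was counted here in a gene when the read lay on the strand opposite to it, because the read is the complement of the RNA. Gene positions and names came from RefSeq (R64), strands from the W or C of the systematic name, and 47 genes without one and 41 genes overlapping chromosome XII from 451418 to 490526 were left out. Counts were divided by the reads outside that stretch.

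Python 3.11.15, numpy 2.4.6, pandas 2.3.3, scipy 1.17.1, matplotlib 3.10.9, R 4.3.3 and limma 3.58.1 were used. The gene fit used lmFit and eBayes with a variance trend on all genes with a read in any library, and was tested on simulated data. Members and lists were chosen with earlier results of these data known. All members are named, and of the lists the called genes and the extremes, beside the genes next to *RPA12* and, chosen after their values were seen, the counterparts of *RPA190* and *RPA12*. The closest genes were sought outside the lists among genes reaching 10 RPM. Alternatives changed the pseudocount, filter, denominator, reads counted, overlap rule, depth, test and replicates. The search for promoter motifs was not run, since no sequence was used here. The intervals from counts cover counting error only. The replicates are described by the study as biological.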

Additional observations from a re-analysis of the deposited data

How the results depend on the processing

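*RPA190* was called higher under all 21 alternatives, with log2 differences of 0.74 to 1.46. With 1 library left out, 452 to 1094 genes, 2 to 3 members and 0 to 3 of the 34 listed genes were called. With a mean of at least 10 RPM required, which left *RPA12* and *RPA14* untested, 1 of 7 members was called. In that setting 903 of all 2902 genes were called, 156 higher and 747 lower. Of the 9 members, 6 were called against the 35S read ends, 4 with median-of-ratios size factors and 7 with distinct intervals. Of the listed genes, 2 were called against protein-coding reads, 7 against the 35S read ends, 2 with size factors, 7 with distinct intervals, and 0 above mapping quality 10, with reads of at least 25 nt or after thinning to 1165143 reads outside the rDNA. Over all 6260 genes tested, 1042 were called against protein-coding reads and 1308 against the 35S read ends. Size factors gave 1083 calls and distinct intervals 1216 among these genes. Above mapping quality 10, 860 of 6089 genes were called, with reads of at least 25 nt 733 of 6213 and after thinning 700 of 6171. Distinct intervals moved the median of all genes to 0.18, and the 35S denominator to 0.20. *RPA135* turned to 0.22 against the 35S read ends and 0.23 with distinct intervals. *RPC19* turned to 0.037 against protein-coding reads, 0.25 against the 35S read ends, 0.042 with size factors, 0.39 with distinct intervals, 0.023 with reads of at least 25 nt, 0.012 after thinning and 0.037 with protein-coding genes only, a setting chosen after the data were seen. *RPA43* ranged from -0.017 to 0.58 with 1 library left out. None of these turned values of *RPA135*, *RPC19* and *RPA43* passed the threshold, and the cause was not tested.

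Deviations of equal replicate numbers correlated at 0.17, 0.01 and -0.02 across 2902 genes, and those of unequal numbers at -0.23 to 0.24. With 3 libraries per strain, these values cannot tell whether equal numbers mark a shared batch, which the labels do not state. With the replicate block, 1335 genes, 2 members and 1 listed gene were called.

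The WT libraries limit the low members, since *RPA14* and *RPA12* had 3 to 13 reads in each.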
